A study of Rattus norvegicus with 18 samples.

Results

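The comparison described here is that of colesevelam with vehicle in the liver of obese rats. It used 12 of the 18 small RNA libraries of a rat liver study, 6 from rats given colesevelam and 6 from rats given vehicle, and every microRNA (miRNA) row of the count table, 401 in all. The rats of both groups carried the strain label ZDF-Leprfa/Crl and the phenotype label obese, and their livers were taken at 8 weeks of age. The libraries of the third group, labelled lean and given neither agent in the labels, have the same strain and age labels. They enter no tested difference, and their levels stand beside the results. In the fits of counts they also took part in the filter, the scaling and the estimate of scatter. Libraries were chosen by their labels and not by any measured value.

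The study set out to examine how liver miRNAs change under colesevelam in Zucker diabetic fatty (ZDF) rats, which carry a defective leptin receptor, overeat and become diabetic. Colesevelam is a polymer that stays in the gut and holds bile acids there. The sources used here give no dose, length of treatment, sex or number of animals. Nothing in the labels ties a library to an animal of its own. The p-values therefore reflect how far these libraries scatter, and some of that scatter may be technical.

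A miRNA is a short RNA that is cut from a hairpin precursor and guides silencing proteins to messenger RNAs. It does so mainly through its seed, bases 2 to 8 from its 5′ end, so miRNAs with the same seed share many predicted targets. Each precursor has a 5p and a 3p arm, and usually 1 arm is kept in far larger amounts. When bile acids are lost in the gut, the liver draws on cholesterol to make new ones, and the sterol sensor SREBP-2 and the bile acid receptor FXR are the main transcription factors known to respond. The miR-183/96/182 cluster is known as a target of SREBP-2, miR-33 lies within the gene of SREBP-2, and miR-34a is known as a target that FXR represses.

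Counts were low. The colesevelam libraries held between 32936 and 122880 miRNA counts and the vehicle libraries between 37909 and 147314, against 110353 to 881450 in the lean libraries. Of the 401 rows, 112 passed the filter on low counts and were tested, and they took 99.6% of what the 12 libraries held. Of the 289 rows that were not tested, 65 had no count in the 12 libraries. The average GC content of the counted miRNAs, weighted by counts, ran from 44.46% to 46.04% with colesevelam and from 44.29% to 46.34% with vehicle.

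Of the 112 miRNAs tested, 12 differed between colesevelam and vehicle (10.7%), by the quasi-likelihood test of edgeR with Benjamini-Hochberg adjustment over all 112 at a threshold of 0.05. Higher with colesevelam were 8 of them (7.14% of those tested), namely miR-182, miR-183-5p, miR-146b-5p, miR-146a-5p, miR-99a-5p, miR-99b-5p, miR-191a-5p and miR-10a-5p. Lower were 4 (3.57%), namely miR-150-5p, miR-28-5p, miR-30d-5p and miR-148a-5p. The row called miR-182 is the 5p arm of that precursor in common usage. Without adjustment, 24 miRNAs had a p under 0.05, 9 of them higher and 15 lower. The median difference over all 112 was -0.00882 on the log2 scale, which the scaling sets close to 0, so each difference is relative to the typical miRNA of a library. Leaving out 1 library at a time gave between 7 and 12 calls, with 7 when vehicle replicate 6 was left out. With size factors recovered from the authors' mean scaled counts in place of TMM, here called the authors' size factors, 2 calls were left, miR-182 and miR-183-5p.

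The deposited sequences of these miRNAs are shown first because shared seeds bear on how their counts can be read. Capitals mark the seed, and the table writes T for U. The pair from the miR-183/96/182 cluster that rose is followed by the third member, which was too rare to test.
miR-182: tTTGGCAAtggtagaactcacaccg
miR-183-5p: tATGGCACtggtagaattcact
miR-96-5p: tTTGGCACtagcacatttttgct
Placed end to end from the 5′ base, miR-182 and miR-183-5p agree at 18 of 22 bases but differ at 2 bases of the seed, so they form separate seed families. The seeds of miR-182 and miR-96-5p differ at 1 base. In the deposited table miR-182 lies at chr4:57221577-57221601, miR-183-5p at chr4:57225432-57225453 and miR-96-5p at chr4:57225227-57225249, all on the minus strand. The genome build behind these coordinates is not given in the sources used here. RefSeq's GRCr8 gene table also places the genes Mir182, Mir96 and Mir183 within 10 kb of each other and lists no protein-coding gene across them.

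The other rises fall into 2 groups that share seeds and 2 single miRNAs. The first pair shares the miR-146 seed and the next 3 the miR-99/100 seed. miR-10b-5p stands under miR-10a-5p because the table starts it further along the same sequence, which gives it another seed.
miR-146a-5p: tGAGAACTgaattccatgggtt
miR-146b-5p: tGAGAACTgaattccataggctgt
miR-99a-5p: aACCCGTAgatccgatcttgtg
miR-99b-5p: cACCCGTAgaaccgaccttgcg
miR-100-5p: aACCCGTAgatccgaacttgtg
miR-191a-5p: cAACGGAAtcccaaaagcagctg
miR-10a-5p: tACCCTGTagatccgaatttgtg
miR-10b-5p: cCCTGTAGaaccgaatttgtgt
miR-146a-5p and miR-146b-5p agree at 20 of 22 bases, miR-99a-5p and miR-99b-5p at 18 of 22, and miR-99a-5p and miR-100-5p at 21 of 22. How the counting dealt with reads that fit several such rows is not given in the sources used here, so the split within these groups is uncertain and the sum per seed is given beside it. In the table's coordinates the miRNAs that rose come from separate loci: miR-146a-5p from chr10:28806796-28806817 (minus strand), miR-146b-5p from chr1:273520443-273520466 (plus), miR-99a-5p from chr11:19707435-19707456 (plus), miR-99b-5p from chr1:60623880-60623901 (plus), miR-191a-5p from chr8:116698881-116698903 (plus) and miR-10a-5p from chr10:83968703-83968725 (plus). In RefSeq's GRCr8 table the gene of miR-191a lies within the span of Dalrd3 and that of miR-99b within the span of Spaca6. The gene of miR-146b overlaps the protein-coding gene C1h10orf95, and that of miR-146a overlaps a long non-coding RNA gene, LOC134480673. That table gives no exons.

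The 4 miRNAs that fell have 4 different seeds. For 2 of them, miR-28-5p and miR-148a-5p, the other arm of the precursor had enough counts to be tested as well, and it is shown beneath because the arms are compared further on.
miR-150-5p: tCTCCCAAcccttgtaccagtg
miR-30d-5p: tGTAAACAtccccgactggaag
miR-28-5p: aAGGAGCTcacagtctattgag
miR-28-3p: cACTAGATtgtgagctcctgga
miR-148a-5p: aAAGTTCTgagacactctgactc
miR-148a-3p: tCAGTGCActacagaactttg
The table places miR-150-5p at chr1:102181499-102181520 (plus strand), miR-30d-5p at chr7:109228690-109228711 (minus), miR-28-5p at chr11:81345188-81345209 (plus) and miR-148a-5p at chr4:145681008-145681030 (minus). The gene of miR-28 lies within the span of Lpp in RefSeq's GRCr8 table. Of the 401 rows 363 match a RefSeq miRNA by name, and all 363 have the RefSeq sequence. miR-30d-5p, miR-150-5p and miR-99a-5p are among those with no entry.

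**Figure D1:**
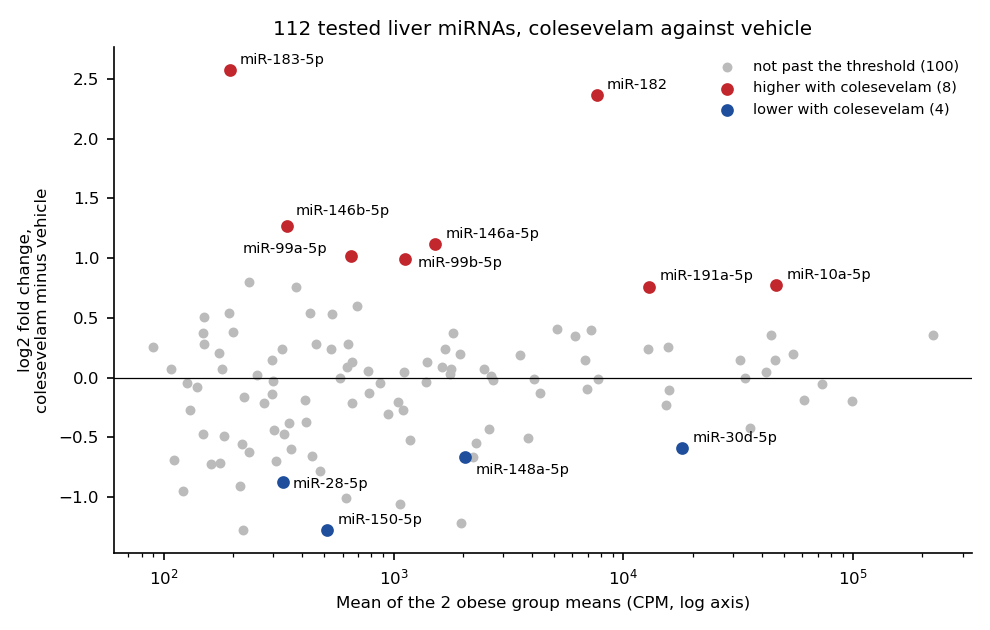
Each point is 1 of the 112 tested miRNAs, placed by its mean level in the obese groups (CPM, log axis) and by its log2 fold change, colesevelam minus vehicle. The 8 red points rose and the 4 blue points fell at an adjusted p under 0.05, and miR-182 and miR-183-5p lie above all others at 2.36 and 2.57.

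The sterol-linked miR-182 gave the clearest difference. Levels are in CPM, counts scaled to a common library total and between libraries by TMM, a method that takes most miRNAs as unchanged. In the colesevelam libraries 1 to 6 the level of miR-182 was 13179, 13586, 13254, 10517, 12031 and 14184 CPM. In the vehicle libraries 1 to 6 it was 2120, 1952, 2902, 3466, 2450 and 2026 CPM. All 6 colesevelam libraries stood above all 6 vehicle libraries, and the gap between the groups was wider than either group's own range. The means were 12792 ± 1318 and 2486 ± 594 CPM (SD, n = 6 each), a 5.15-fold difference, or 2.36 ± 0.19 on the log2 scale (± SE, edgeR adjusted p = 3.01e-09). The lean libraries ran from 3435 to 6448 CPM, and all but the lowest lay between the obese groups. miR-182 is known to lower FBXW7, a protein that marks SREBP for breakdown.

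miR-183-5p, the neighbour of miR-182, rose with it at a much lower level. In the colesevelam libraries it stood at 198, 375, 333, 375, 331 and 379 CPM, and in the vehicle libraries at 49.9, 41.5, 49.2, 79.7, 52.3 and 58.9 CPM. The groups did not overlap, and colesevelam replicate 1 was well under the other 5. The difference was 5.95-fold, 2.57 ± 0.29 on the log2 scale (edgeR adjusted p = 6.84e-07), and it was 2.70 without colesevelam replicate 1. It rests on 125 counts with colesevelam and 23 with vehicle. Vehicle replicates 1, 2 and 3 lay below the level of 3 counts, which is 76.2, 63.1 and 79.1 CPM by their library totals. The lean libraries held 66.1 to 145 CPM.

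The other sterol-linked miRNAs were at the limit of detection. miR-96-5p had 2 counts in the colesevelam group and 2 in the vehicle group, and miR-33-5p had 2 and 3. Their levels were at most 20.1 and 28.2 CPM in any colesevelam library and 24.6 and 39.8 CPM in any vehicle library. With so few counts a difference between the groups at these levels was not detectable. The 3p arm of miR-183 had 1 count with colesevelam and none with vehicle. Of the 6 rows of the sterol-linked list 2 were tested, and both rose, beside 7.14% of all tested miRNAs. The 2 lie in 1 cluster and the list was chosen with earlier results known, so this is no separate test.

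The miR-146 pair rose to a smaller extent. Both are known to be induced through NF-kB and to damp the signalling of Toll-like receptors by lowering TRAF6 and IRAK1. miR-146a-5p stood at 1580 to 2697 CPM in the colesevelam libraries (median 1999) and at 459 to 1500 CPM in the vehicle libraries (median 1003). The groups did not overlap, and the vehicle libraries were the more scattered, with a coefficient of variation of 47.0% against 23.0%. The difference was 2.17-fold, 1.12 ± 0.27 on the log2 scale (edgeR adjusted p = 0.0114). miR-146b-5p stood at 294 to 662 CPM with colesevelam (median 491) and at 130 to 299 CPM with vehicle (median 203). Here the lowest colesevelam library was just below the highest vehicle library. The difference was 1.27 ± 0.29 on the log2 scale (edgeR adjusted p = 0.0088). The lean means were 936 ± 165 CPM for miR-146a-5p and 199 ± 56.3 CPM for miR-146b-5p.

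The miRNAs with the miR-99/100 seed, which are known to lower mTOR, moved in the same direction. miR-99a-5p lay between 412 and 470 CPM in the 6 vehicle libraries, a coefficient of variation of 5.48% against a median of 31.5% over all tested miRNAs. These libraries held 183 counts of it in all, where counting error alone is larger than that spread. The narrow range therefore cannot be read as a steady level. In the colesevelam libraries it lay between 593 and 1258 CPM. The groups did not overlap, and the difference was 2.03-fold, 1.02 ± 0.25 on the log2 scale (edgeR adjusted p = 0.0114, and 0.0520 with no filter on counts). The authors' size factors gave 0.58 for miR-99a-5p, which was not called (edgeR adjusted p = 0.775). miR-99b-5p stood at 855 to 2435 CPM with colesevelam and at 411 to 1297 CPM with vehicle. Its groups overlapped, with a difference of 0.99 ± 0.30 on the log2 scale (edgeR adjusted p = 0.0340). The call was lost without vehicle replicate 5 (adjusted p = 0.0832) and in 5 of 12 other fits: with upper-quartile factors, library totals, the authors' size factors, libraries of the same label number summed, and the replicate block (edgeR adjusted p = 0.0629 to 0.641). miR-100-5p had 30 counts with colesevelam and 13 with vehicle and was not tested.

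miR-10a-5p and miR-191a-5p were the most abundant miRNAs that rose. miR-10a-5p, encoded in the HoxB gene cluster, was the 7th most abundant miRNA of the 12 libraries. It stood at 45578 to 79697 CPM with colesevelam (median 55173) and at 22286 to 47544 CPM with vehicle (median 33276). Only the upper end of the vehicle range reached the colesevelam range, and the difference was 1.71-fold, 0.77 ± 0.20 on the log2 scale (edgeR adjusted p = 0.0154). Its adjusted p was 0.0550 without vehicle replicate 6, 0.0563 with no filter on counts and 0.0707 without the row of miR-192-5p. With the authors' size factors its difference was 0.47 and was not called (edgeR adjusted p = 0.843). miR-191a-5p, a miRNA that many studies use as a reference because it is expressed widely, stood at 11778 to 24429 CPM with colesevelam (median 14399) and at 7955 to 12643 CPM with vehicle (median 8768). The groups overlapped slightly. The difference was 1.70-fold, 0.76 ± 0.19 on the log2 scale (edgeR adjusted p = 0.0134). It was not called with upper-quartile factors (0.80, adjusted p = 0.0564), with no filter on counts (0.73, adjusted p = 0.0657) or with the authors' size factors (0.40, adjusted p = 0.856).

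Together the 8 miRNAs that rose made up 8.26% to 9.6% of all counts in the colesevelam libraries and 4.2% to 5.59% in the vehicle libraries. In the lean libraries they made up 4.99% to 6.94%. These shares describe the choice of the 8 and are no further test of it.

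**Figure D2:**
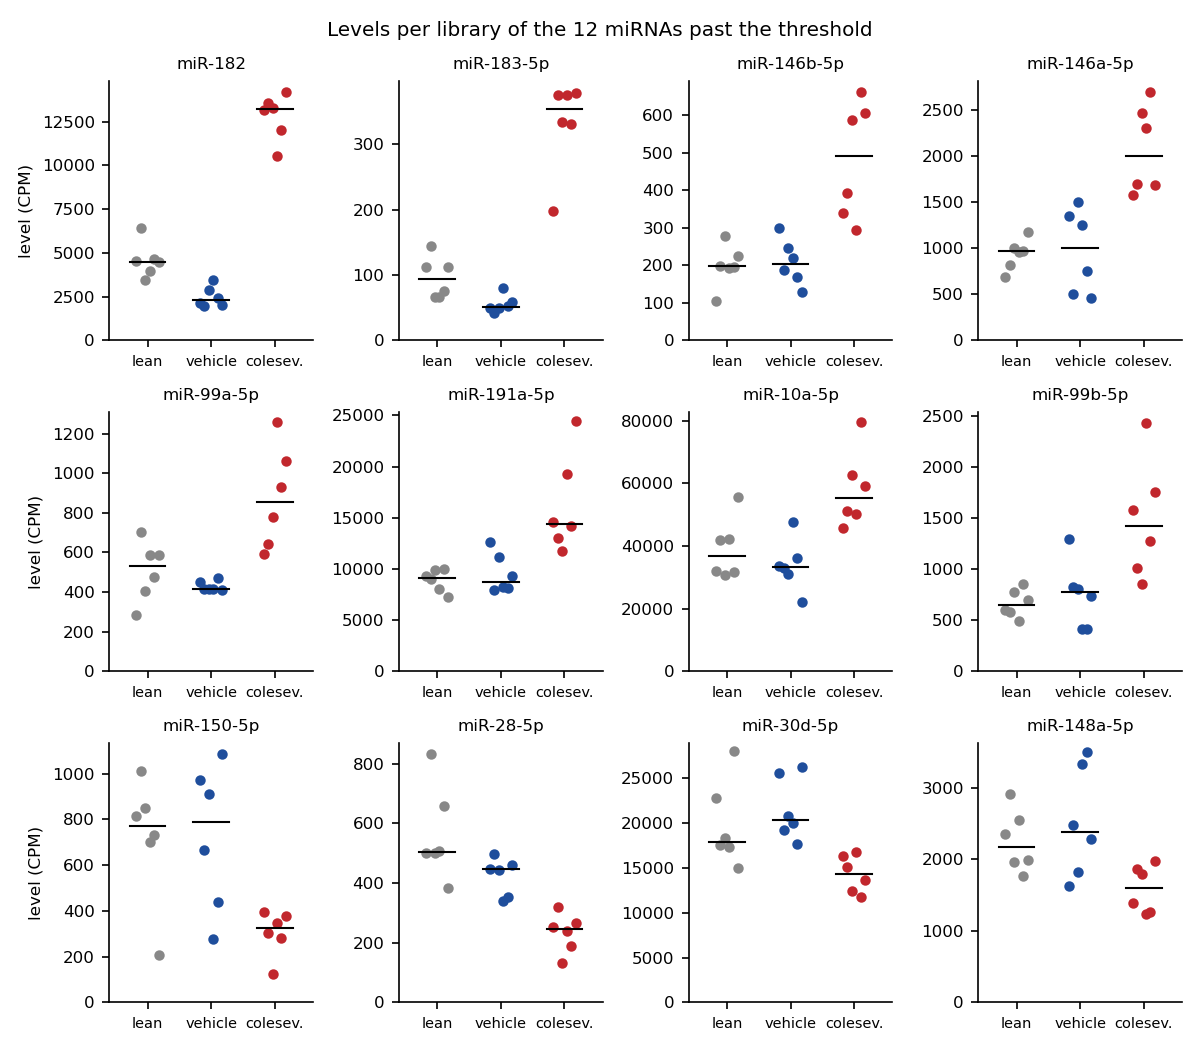
Levels in CPM (linear axes from 0) of the 12 miRNAs past the threshold, 1 point per library, for the lean, vehicle and colesevelam groups of 6, with the group median as a bar. miR-182, miR-183-5p, miR-146a-5p, miR-99a-5p, miR-28-5p and miR-30d-5p show no overlap between vehicle and colesevelam libraries.

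The 4 falls were smaller than the leading rises, and none kept its call whichever library was left out. Of 12 other scalings, filters, tools and groupings, 6 kept the call for each of miR-150-5p, miR-28-5p and miR-30d-5p, and 4 that for miR-148a-5p. miR-150-5p, which is rich in mature lymphocytes and lowers MYB, stood at 122 to 395 CPM with colesevelam (median 326) and at 279 to 1084 CPM with vehicle (median 787). The difference was -1.27 ± 0.38 on the log2 scale (edgeR adjusted p = 0.0340), and the lowest vehicle library lay within the colesevelam range. The call held in 3 of the 12 fits that each left out 1 library, namely without colesevelam replicate 1 or vehicle replicate 4 or 5.

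miR-28-5p and miR-30d-5p fell with no overlap between the groups. miR-28-5p stood at 133 to 321 CPM with colesevelam and at 339 to 499 CPM with vehicle, a difference of -0.87 ± 0.26 on the log2 scale (edgeR adjusted p = 0.0340). It rests on 81 and 170 counts. miR-30d-5p, a member of the large miR-30 family, stood at 11741 to 16805 CPM with colesevelam and at 17728 to 26303 CPM with vehicle. Its difference was -0.59 ± 0.18 (edgeR adjusted p = 0.0340). In the fits that each left out 1 library, miR-28-5p was called without colesevelam replicate 1 or 2 or vehicle replicate 1, 4 or 5, and miR-30d-5p only without vehicle replicate 5.

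miR-148a-5p is the rarer arm of a precursor that is rich in liver. It stood at 1231 to 1970 CPM with colesevelam (median 1591) and at 1621 to 3501 CPM with vehicle (median 2378). The ranges overlapped, with a difference of -0.66 ± 0.21 on the log2 scale (edgeR adjusted p = 0.0411). Of the 12 fits that each left out 1 library, only that without vehicle replicate 1 kept the call. The main arm, miR-148a-3p, known to lower the LDL receptor and the cholesterol exporter ABCA1, stood at 48015 ± 17418 CPM with colesevelam and 43323 ± 16182 CPM with vehicle, a difference of 0.15 ± 0.29 (edgeR adjusted p = 0.832).

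Across all 112 tested miRNAs, 6 showed no overlap between the colesevelam and vehicle libraries (5.36%), and all 6 were among the 12 called. They were miR-182, miR-183-5p, miR-146a-5p and miR-99a-5p above and miR-28-5p and miR-30d-5p below. The 10 miRNAs next in order of p-value did not pass. Of these 9 had lower levels with colesevelam. They began with miR-31a-5p at -0.67 ± 0.22 and miR-181c-5p at -0.91 ± 0.30 on the log2 scale (edgeR adjusted p = 0.0523 for both). miR-31a-5p passed without vehicle replicate 4 or 5 (edgeR adjusted p = 0.0227 and 0.0453). It also passed with DESeq2's size factors in edgeR, library totals, DESeq2, without miR-192-5p and with the obese libraries alone. The edgeR or DESeq2 adjusted p-values there were 0.01133 to 0.03905. miR-181c-5p passed in all but the last of these settings (edgeR or DESeq2 adjusted p = 0.0241 to 0.0433). miR-532-5p, miR-30c-5p, miR-21-3p, miR-122-3p, miR-423-3p, miR-423-5p and miR-199a-3p followed, with differences from -1.28 to -0.50 and edgeR adjusted p-values from 0.1125 to 0.1728. miR-122-3p passed without colesevelam replicate 1 (edgeR adjusted p = 0.0476). miR-30c-5p passed with library totals and miR-423-3p with the obese libraries alone (edgeR adjusted p = 0.0332 and 0.0448). miR-98-5p alone of the 10 was higher, at 0.76 ± 0.34 (edgeR adjusted p = 0.1895). Without vehicle replicate 4, its highest vehicle library, that difference was 1.16 and passed (edgeR adjusted p = 0.0212).

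Counts summed over all rows with the same seed avoid the question of how reads were split between those rows. They do not join miR-10a-5p and miR-10b-5p, which agree at 20 of 21 bases but have different seeds in the table. Of 82 seed families tested, 7 differed between the groups (8.54%), 6 higher and 1 lower with colesevelam. The miR-99/100 seed, summed over miR-99b-5p, miR-99a-5p and miR-100-5p, stood at 1680 to 3803 CPM with colesevelam and at 872 to 1480 CPM with vehicle. The sums did not overlap, unlike those of miR-99b-5p alone, and differed by 1.11 ± 0.21 on the log2 scale (edgeR adjusted p = 0.000613). The miR-146 seed stood at 2032 to 3570 CPM against 614 to 1735 CPM and differed by 1.24 ± 0.26 (edgeR adjusted p = 0.00189). The other 4 families that rose hold a single counted miRNA each, miR-182, miR-183-5p, miR-191a-5p and miR-10a-5p. The family that fell is that of miR-150-5p (-1.19 ± 0.37, edgeR adjusted p = 0.0458). The families of miR-28-5p (-0.79 ± 0.26, edgeR adjusted p = 0.0608) and miR-148a-5p (-0.59 ± 0.22, edgeR adjusted p = 0.1117) did not pass. The former passed without colesevelam replicate 1, 2 or 6 or vehicle replicate 1 or 4, and the latter without colesevelam replicate 2 or 6 or vehicle replicate 1 or 3. The family of the fourth fall, miR-30d-5p, which sums the miR-30 rows with its seed, differed by -0.12 ± 0.17 (edgeR adjusted p = 0.712). The call for miR-150-5p was lost without each of colesevelam replicates 2 to 5 and vehicle replicates 1, 2, 3 and 6, and that for miR-191a-5p without vehicle replicate 2. Without colesevelam replicate 1 there were 11 families. The authors' size factors lost the families of miR-99/100, miR-146, miR-191a-5p, miR-10a-5p and miR-150-5p. Upper-quartile factors lost those of miR-191a-5p and miR-10a-5p, and summing libraries of the same label number lost those of miR-10a-5p and miR-150-5p. That of miR-150-5p was also lost with limma-voom, the replicate block and a filter of 50 CPM in 6 libraries.

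Apart from miR-182 and miR-183-5p, which lie together and both rose, no tested neighbour of a called miRNA on the chromosome passed. let-7c-5p, which lies 702 bases from miR-99a-5p and also has a second location in the table, differed by 0.24 ± 0.32 on the log2 scale (edgeR adjusted p = 0.772). Beside miR-99b-5p, let-7e-5p differed by -0.14 ± 0.38 and miR-125a-5p by 0.24 ± 0.25 (edgeR adjusted p = 0.920 and 0.691). miR-425-5p, 431 bases from miR-191a-5p, differed by 0.37 ± 0.32 (edgeR adjusted p = 0.583). Whether neighbours differed from each other in their response was not tested.

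Both arms were counted often enough in 13 precursors to compare them within each library, where scaling between libraries cancels. The ratio of arms differed between the groups for 2 of the 13 (15.4%), by a two-sided exact permutation test over all 924 assignments of the 12 libraries with Benjamini-Hochberg adjustment. miR-28 had 33.6, 15.4, 35.7, 28.8, 30.1 and 33.1 counts of the 3p arm per count of the 5p arm in the colesevelam libraries 1 to 6. In the vehicle libraries it had 15.7, 10.2, 13.5, 13.9, 11.1 and 11.0. Colesevelam replicate 2 was the single library of its group within the vehicle range. The geometric means were 28.4 and 12.4, a 2.29-fold difference (two-sided exact p = 0.00433, adjusted p = 0.0422). The lean libraries ran from 6.49 to 11.7.

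The precursor of miR-122, the most hepatocyte-specific miRNA, gave the other difference. Its 5p arm had 16.6 to 40.4 counts per count of the 3p arm with colesevelam and 7.16 to 19.8 with vehicle. The ranges overlapped, and the geometric means were 26.5 and 13.5 (two-sided exact p = 0.00649, adjusted p = 0.0422). The lean libraries were spread over both ranges, from 4.29 to 33.2. In the edgeR fit neither arm of miR-122 passed by itself, with 0.35 ± 0.32 on the log2 scale for the 5p arm and -0.55 ± 0.22 for the 3p arm (adjusted p = 0.619 and 0.136). For miR-148a the 3p arm had 17.4 to 46.5 counts per count of the 5p arm with colesevelam and 11.0 to 23.7 with vehicle, which did not pass (two-sided exact p = 0.0195, adjusted p = 0.0844). Both calls were lost without colesevelam replicate 3, 4, 5 or 6 or vehicle replicate 1, 2, 3 or 5. That of miR-122 was also lost without colesevelam replicate 2. Where both were lost, the miR-28 difference in log2 of 5p per 3p was -1.26 to -1.13, beside -1.20 with all libraries. Its two-sided exact p there was 0.00433 to 0.00649 before adjustment. A p of that size passes among 13 precursors only if another precursor's p is also low, so the miR-28 call turns on other precursors too.

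**Figure D3:**
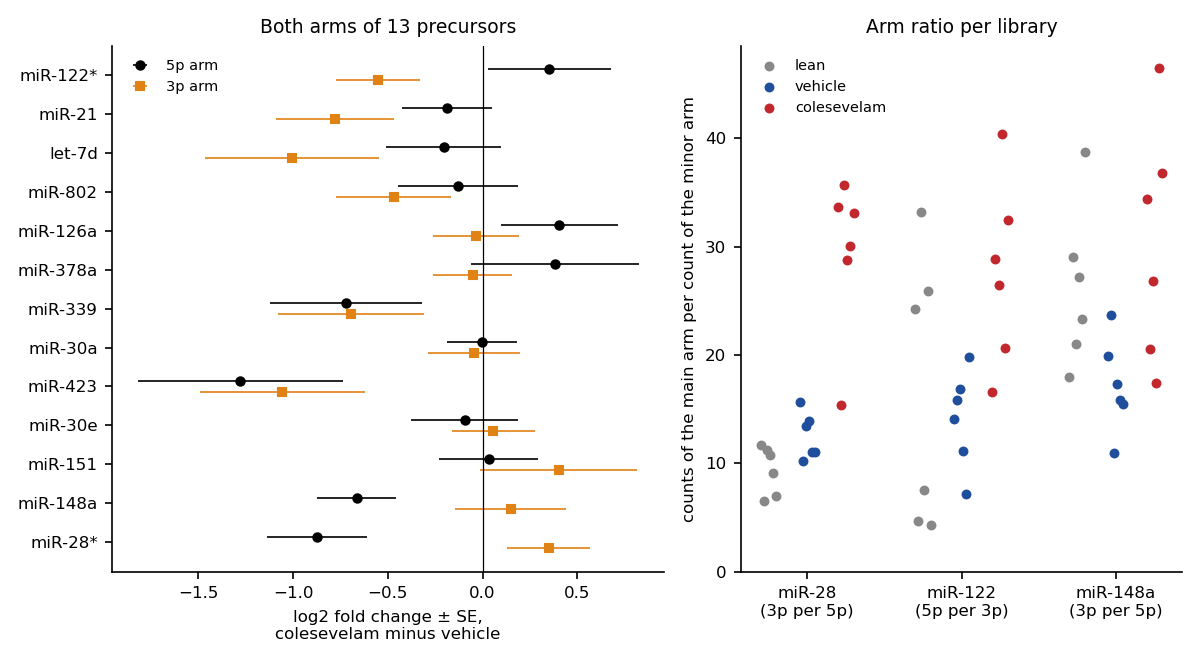
Left, the log2 fold change ± SE, colesevelam minus vehicle, of the 5p (circles) and 3p (squares) arm of 13 precursors, with an asterisk where the arm ratio differed at an adjusted p under 0.05. Right, counts of the main arm per count of the minor arm in each library (linear axis), where miR-28 ran from 15.4 to 35.7 with colesevelam and from 10.2 to 15.7 with vehicle.

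The abundant miRNAs of liver showed no call apart from miR-10a-5p. miR-192-5p, a liver and gut miRNA and the most abundant row with 23.5% of counts, stood at 249660 ± 90740 CPM with colesevelam and 194900 ± 59045 CPM with vehicle, a difference of 0.36 ± 0.26 on the log2 scale (95% interval -0.19 to 0.90). Among the 10 most abundant, the other 8 were miR-22-3p, miR-378a-3p, miR-21-5p, miR-26a-5p, miR-148a-3p, miR-143-3p, miR-122-5p and miR-30a-5p. Their differences lay between -0.19 and 0.35, with the smallest edgeR adjusted p at 0.567. The interval for miR-22-3p was -0.64 to 0.25, that for miR-122-5p -0.32 to 1.02 and that for miR-21-5p -0.68 to 0.30. A moderate fall of miR-22-3p or miR-21-5p and a moderate rise of miR-122-5p thus lie within them.

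Of 20 lists of related miRNAs, 19 had a tested member and 6 had a member past the threshold. The hepatocyte-enriched list had 10 tested members, of which none rose and 1 fell, miR-148a-5p, a share close to the 10.7% called among all tested miRNAs. Its median difference was -0.07 on the log2 scale, beside -0.00882 over all tested miRNAs, and its summed level was 277110 to 512480 CPM with colesevelam and 225070 to 372440 CPM with vehicle. In the list linked to cholesterol efflux and the LDL receptor the same miR-148a-5p was the single call among 5 tested members, beside 10.7% called of all tested miRNAs (median -0.03). The list linked to the bile acid receptor had 6 tested members and no call, with a median of -0.11 and the smallest adjusted p at 0.136. miR-34a-5p, which belongs to that list and lowers the deacetylase SIRT1, had 29 counts with colesevelam and 8 with vehicle and was not tested.

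Metabolic lists showed no calls. The insulin and glucose list had 13 tested members, a median of -0.03 and differences from -0.47 to 0.41. In it miR-802-5p, known to rise in obese liver and to impair glucose tolerance, differed by -0.13 ± 0.32, miR-103-3p by 0.13 ± 0.21, miR-107-3p by -0.19 ± 0.24 and miR-29a-3p by -0.02 ± 0.17. The list of miR-378 and other PGC-1-linked and thermogenic miRNAs had 5 tested members and a median of 0.07. miR-378a-3p, which is encoded within the PGC-1beta gene, differed by -0.05 ± 0.21.

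Families defined by sequence or cluster gave 4 calls in 2 lists. In the miR-10, miR-99, miR-100 and miR-125 group 3 of 7 tested members rose, beside 7.14% of all tested miRNAs, and the median was 0.53. The other 4 were miR-10b-5p at 0.53 ± 0.41, miR-125a-5p at 0.24 ± 0.25, miR-125b-5p at 0.20 ± 0.24 and miR-125b-2-3p at -0.21 ± 0.34. The miR-30 family had 7 tested members and 1 fall, miR-30d-5p, beside 3.57% of all tested miRNAs, while miR-30a-5p, which is identical to it at 21 of 22 bases, differed by -0.00423 ± 0.18. No member passed among 10 tested of let-7 (median 0.14), 5 of the miR-23/27/24 clusters (0.01), 4 of the miR-17-92 and related clusters (-0.40), 4 of the miR-15 and miR-16 family (0.10) and 3 of miR-181 (-0.38).

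Lists of other cell types describe what else the tissue held. In the leukocyte list 4 of 11 rows were tested, of which 2 rose (the miR-146 pair) and 1 fell (miR-150-5p), beside 7.14% and 3.57% of all tested miRNAs. The fourth, miR-142-5p, which is found throughout blood cells, differed by 0.09 ± 0.37 on the log2 scale. The summed level of that list was 2709 to 4903 CPM with colesevelam and 2132 to 3092 CPM with vehicle. miR-223-3p, the leading miRNA of neutrophils, had 8 and 7 counts, miR-155-5p had 7 and 1, and the 3p arms of miR-146a, miR-146b and miR-150 had none in the 12 libraries. In bulk tissue, fewer cells of a type and less RNA per cell cannot be told apart, and the part that leukocyte numbers have in the miR-146 and miR-150 differences was not tested.

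The other cell type lists held no call. The erythroid miR-451-5p differed by -0.04 ± 0.46, the endothelial list had 2 tested members with a median of 0.19, and the epithelial miR-200b-3p differed by 0.26 ± 0.40. The stellate cell and fibrosis list had 5 tested members with a median of -0.60 and the smallest adjusted p at 0.136. Its members ran from miR-21-3p at -0.78 to miR-143-3p at 0.05. The islet miRNA miR-375-3p differed by -0.0012 ± 0.39, and no muscle miRNA was tested, with a summed level of at most 26.8 CPM in any of the 12 libraries.

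**Figure D4:**
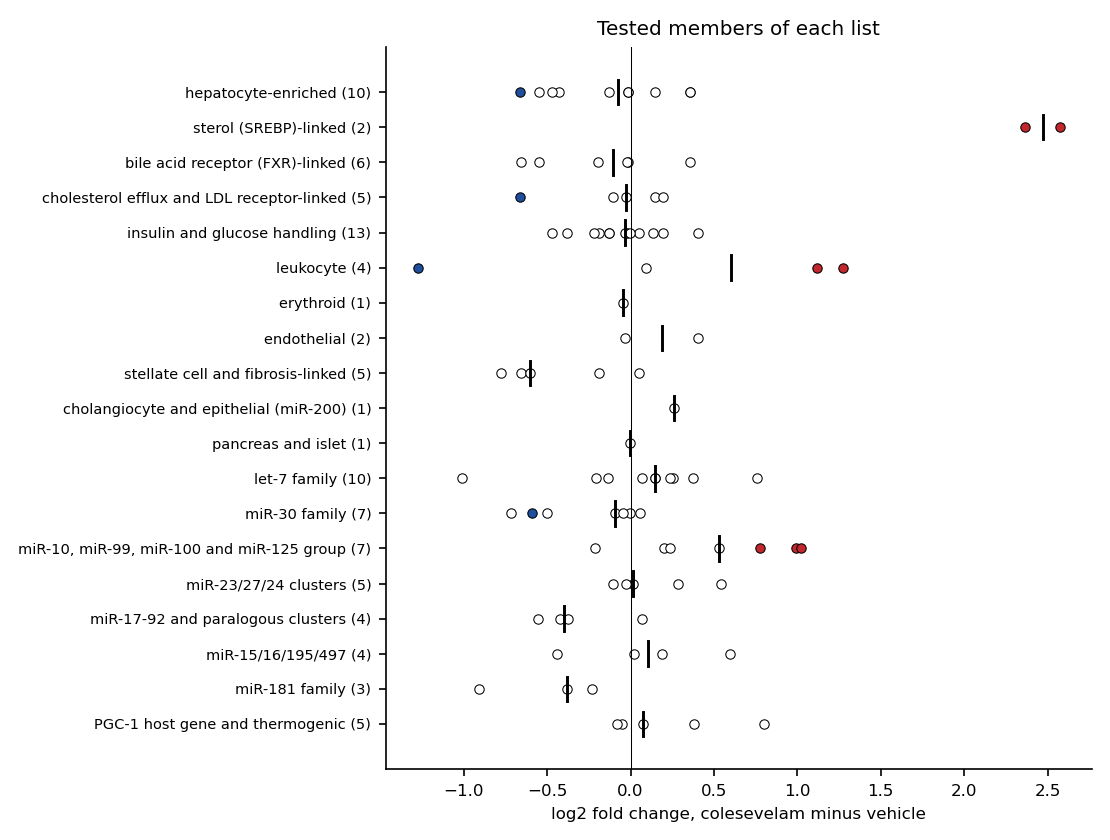
Log2 fold change, colesevelam minus vehicle, of each tested miRNA in 19 lists (number tested in brackets), with red for a rise and blue for a fall past the threshold, open circles for the rest and a bar for the median. The 2 tested sterol-linked miRNAs lie at 2.36 and 2.57, beyond every other list member, and a miRNA can stand in more than 1 list.

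Some differences lie outside the tested rows or were too variable to call, and the 2 miRNAs here were picked after their values were seen. miR-193a-3p had 13 counts with colesevelam and 66 with vehicle, at 0 to 80.3 and 49.9 to 249 CPM. It had too few counts for the main test. With no filter on counts it was lower with colesevelam by -2.10 ± 0.57 on the log2 scale (edgeR adjusted p = 0.0380 over 401 rows), and it was also called in the fit without vehicle replicate 1. It shares its seed with miR-193b-3p, so the split of reads between these rows is uncertain. Summed over that seed, the difference was 0.14 ± 0.48 (edgeR adjusted p = 0.878). miR-6215 ran from 10.03 to 6096 CPM in the colesevelam libraries and from 49.9 to 7009 CPM in the vehicle libraries, while no lean library exceeded 60.6 CPM. The difference between the obese groups was -1.22 ± 1.23 (edgeR adjusted p = 0.691), within the spread of either group.

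**Figure D5:**
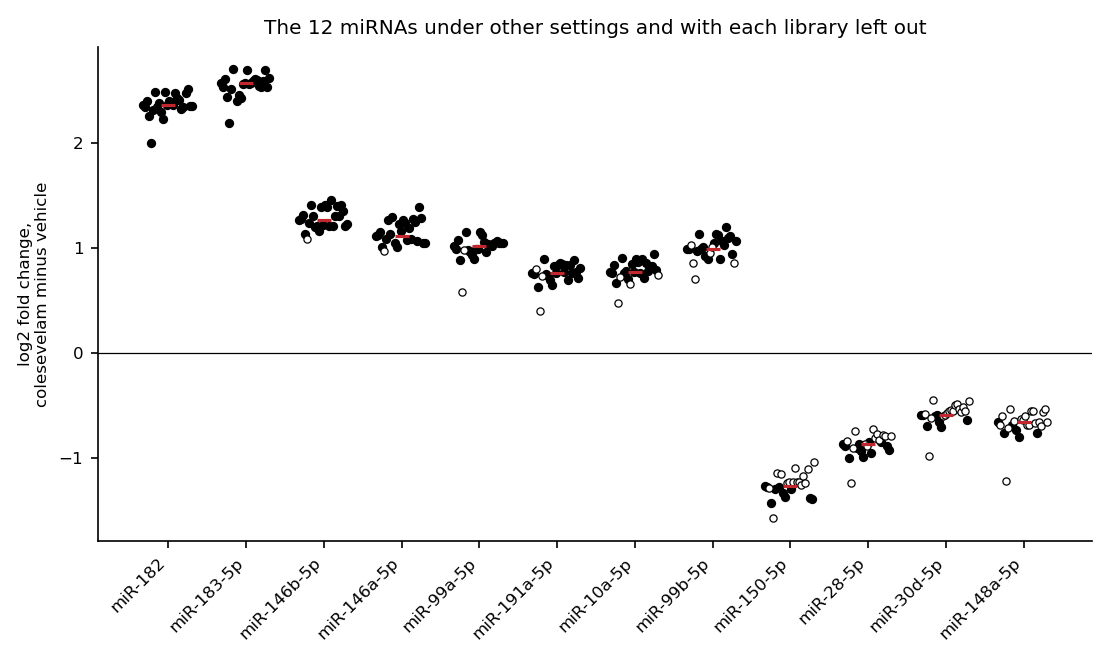
Log2 fold change, colesevelam minus vehicle, of the 12 called miRNAs in the main fit (red bar) and under other scalings, filters, tools and left-out libraries (points), filled where the adjusted p is under 0.05. All points keep the sign of the main fit, miR-182 and miR-183-5p are filled in every fit that gave an adjusted p, and the 4 falls are open in most fits.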

How the data were processed

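The values are the estimated counts that the authors deposited, 1 row per mature miRNA and not scaled, of which 297 of 7218 are not whole. They also deposited mean scaled counts per comparison, which were used only to recover the size factors of the authors. The factors used here were those recovered from the comparisons of colesevelam and of vehicle with lean, joined through the lean libraries. Bowtie 1.1.2 and DESeq2 1.18.1 were used per the submitters' processing notes. Genome build, annotation and counting tool: not given in the sources used here. Livers were frozen in liquid nitrogen and libraries made from total RNA with a TruSeq RNA kit, per the labels' protocols.

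Counts were rounded and filtered by filterByExpr by group (minimum count 10, minimum total 15). They were scaled by TMM (factors 0.814 to 1.19 in the 12 libraries) and fitted with edgeR 4.0.16 (R 4.3.3, robust quasi-likelihood) over all 18 libraries with a term per group. Arm ratios used a pseudocount of 0.5. Scripts were tested on simulated data. Levels are mean ± SD or ranges over 6 libraries, and fold changes are ± SE. That SE is the size of the log2 difference divided by the square root of edgeR's F statistic. It and the 95% intervals thus rest on the same test as the p-values. Limits from 3 counts cover counting error only, and without molecular identifiers reads cannot be taken as independent molecules.

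The members, the 20 lists and the tests were chosen with earlier results of these data known. Named were all called miRNAs, the 10 next by p-value, the 10 most abundant, the other arms and seed mates of those called, 16 fixed names and up to 4 members per list. Lists were not tested as sets. Libraries colesevelam 2 and 3, colesevelam 4 and 5, and vehicle 3 and 4 share a number in their labels whose meaning is not given. Their counts differ beyond counting noise (chi-square per degree of freedom 15.2 to 73.3), so they are not 1 library deposited again, but whether they come from the same animal is not known. Each was used as a replicate, as titled. Summing them left 7 calls in place of 12. Nothing in the labels ties equal sample numbers of the groups to each other, so the main fit did not pair them.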

Additional observations from a re-analysis of the deposited data

Results flagged for a closer look

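In 3 of the 78 groups of 6 libraries that were checked, 1 library stood apart from the other 5 by Dixon's criterion, which chance meets in about 1 group in 20. miR-183-5p was at 197.55 CPM in colesevelam replicate 1 and at 330.86 CPM in the next lowest library of that group. miR-98-5p was at 617.45 CPM in vehicle replicate 4 and at 319.7 CPM in the next highest. miR-30a-5p was at 48161 CPM in the same vehicle library and at 33954 CPM in the next highest.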

How the results depend on the processing

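None of the 12 called differences changed sign in any fit. Against 12 calls with TMM (8 higher, 4 lower), 6 (6 and 0) were made with upper-quartile factors, 2 (2 and 0) with the authors' size factors, 7 (5 and 2, of which 6 are among the 12) with no filter on counts, 7 (7 and 0) with libraries of the same label number summed, and 7 (7 and 0) with the replicate block. Library totals gave 14 (7 and 7), DESeq2 13 (7 and 6), limma-voom 10 (8 and 2) and the 12 obese libraries alone 15 (8 and 7). DESeq2 gave no adjusted p for miR-183-5p. Leaving out 1 library gave 7 to 12. The authors' factors moved the median of all tested miRNAs to -0.357, library totals to -0.117 and leaving out miR-192-5p to -0.12, and miR-182 and miR-183-5p were the 2 calls left with the authors' factors. Seed families went from 7 to 15 (4 higher, 11 lower) with upper-quartile factors, to 2 with the authors' factors and to 13 (6 and 7) with the obese libraries alone, and ran from 5 to 11 with 1 library left out. Calls of arm ratios went from 2 to 0 with summed libraries, where the smallest possible p is 0.00794. miR-28 reached it there, with a difference of -1.30 in log2 of 5p per 3p (two-sided exact test, adjusted p = 0.103). They went to 0 with the replicate block, where the smallest p that 6 pairs allow is 0.03125. At either smallest p, 1 precursor alone among 13 cannot pass the adjustment, so these 2 settings cannot decide on single precursors. With 1 library left out the calls ran from 0 to 3. The cause of these changes was not tested. Sample numbers are shared between groups. Deviations of same-numbered libraries correlated above 0.1 in 2 of 6 pairs (range -0.532 to 0.564), and 4 of 12 libraries correlated best with their own number. So few pairs cannot settle whether the numbers pair the libraries. At these depths, miRNAs under about 3 counts per library cannot be compared.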
